A study of Homo sapiens with 10 samples.

Results

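LBH and 9 genes of the Wnt pathway were followed in ARPE-19 cells, an established human retinal pigment epithelial (RPE) cell line. They are the rows of the deposited count table with the symbols LBH, AXIN2, WNT5A, WNT5B, DKK1, DKK3, SFRP1, CTNNB1, TCF7 and LEF1, 10 of 22626 rows in all. Each symbol had 1 row. The genes were chosen by name with their counts and log2 fold changes in this same comparison of high glucose and control medium already known, so their differences between the groups are given as a description, and the counts of those past a threshold support nothing.

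The control group (n = 5) was kept for 48 h in 5.5 mM D-glucose with 32 mM mannitol, a sugar alcohol that raises the number of dissolved molecules. The high glucose group (n = 5) was kept for 48 h in 37.5 mM D-glucose. All cells were the same unmodified line in DMEM with fetal bovine serum, so the libraries are repeats within 1 cell line. The labels do not say whether they came from separate cultures, and p-values then measure only the spread between these libraries. Only the control medium held mannitol, so the effects of glucose and mannitol cannot be told apart. Control libraries carry the replicate numbers of their labels, and high glucose libraries are named by their deposited column, HG_1 to HG_5.

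Wnt proteins are secreted, lipid-modified ligands that bind Frizzled receptors and the co-receptors LRP5 and LRP6. In the canonical arm this stops the destruction complex, built on APC and AXIN proteins, from marking beta-catenin for degradation, and beta-catenin then enters the nucleus and activates genes with TCF and LEF proteins. Other Wnt ligands, WNT5A among them, act mainly through beta-catenin-independent arms that direct cell polarity and movement. LBH is a small nuclear cofactor of transcription that Wnt signaling can induce in epithelial cells, and Wnt signaling helps to set RPE fate in the developing eye.

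Total counts ranged from 32448991 to 45864176 per library, and 14936 rows passed the filter on low counts. On the second principal component (14.9% of the variance) HG_1 scored -44.9 and control replicate 2 scored -43.9, while the remaining 8 libraries scored between -13.8 and 28.6. Both libraries were also left out together, and values without them are given where stated. Of 13 RPE markers, 7 had a mean of at least 1 FPKM (fragments per kilobase and per library size, a level divided by transcript length), among them the RPE transcription factors OTX2 and MITF. The visual cycle enzyme RPE65 had at most 6 counts in any library, TTR had 0, and BEST1 ranged from 24 to 18223 counts, with a mean FPKM of 35.9 in control and 1.18 in high glucose (log2 fold change -4.97, edgeR adjusted p = 0.067), the groups overlapping and the high counts lying in control replicates 1 and 4. In the RPE list KRT8, KRT18 and PMEL were lower and 0 genes higher in high glucose, while BEST1, OTX2, MITF and RLBP1 did not pass the test (edgeR adjusted p = 0.067, 0.0814, 0.102 and 0.133). The summed FPKM of the list, most of it from the general epithelial keratins KRT8 and KRT18, ranged from 1543 to 1921 in control and from 988 to 1295 in high glucose libraries. Of 3 leukocyte markers, CD68 was higher while PTPRC had at most 4 counts and AIF1 0, and the summed FPKM ranged from 29.5 to 42.9 in control and from 55.7 to 74.8 in high glucose. Photoreceptor and endothelial markers summed to less than 1 FPKM in every library, with CRX, GNAT1 and CDH5 among those at 0. The endothelial marker KDR, with 70 to 151 counts, was lower in high glucose (log2 fold change -0.63, edgeR adjusted p = 0.0452). The Mueller glia list summed to between 18.04 and 22.2 FPKM, with SLC1A3 at 0 and GFAP at no more than 7 counts in any library. Nearly all of that sum came from GLUL (mean 14.2 FPKM) and RLBP1 (5.87 FPKM), and RLBP1 is also on the RPE list. The part of these marker levels in the results below was not tested.

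Promoter sequence from RefSeq (GRCh38.p14) was matched by symbol for 7 of the 10 genes, with 10 windows of 250 bases before a transcript start. AXIN2, DKK3 and SFRP1 were not matched. The letters CTTTGAA or CTTTGAT, which TCF and LEF proteins are known to bind, were searched on both strands, and TATAAA, the core of the TATA box, on the coding strand only. TATAAA was added after the LBH window had been read. CTTTGAA or CTTTGAT was in 1 of the 10 windows, that of DKK1, against 5.94% of all 35116 windows of this length. Other forms of a TCF/LEF site were not searched, so no window is shown to lack such a site. TATAAA was in 2 windows, those of LBH and DKK1, against 6.8% of all windows. These are shown because LBH had the largest difference among the genes and DKK1 held CTTTGAA. Matches are in capitals, all sequences are on the plus strand, and a match says nothing of binding in these cells.
LBH, chr2:30231284-30231368, the 85 bases before the first annotated transcript start: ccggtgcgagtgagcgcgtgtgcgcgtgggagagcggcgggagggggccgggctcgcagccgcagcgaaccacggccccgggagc
LBH, chr2:30231491-30231520, 30 bases with TATAAA: cgcccccgccccTATAAAtacggcttcccg
DKK1, chr10:52314031-52314280, the 250 bases before the start: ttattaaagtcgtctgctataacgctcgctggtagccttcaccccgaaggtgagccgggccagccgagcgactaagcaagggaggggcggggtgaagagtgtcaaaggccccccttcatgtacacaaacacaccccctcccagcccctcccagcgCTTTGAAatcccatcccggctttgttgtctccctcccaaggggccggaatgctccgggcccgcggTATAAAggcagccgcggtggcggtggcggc
In LBH, TATAAA began 31 bases before the RefSeq start, and in DKK1 30 bases before it. The RefSeq start of LBH is not its first annotated start, which is at chr2:30231369. The TATAAA of LBH thus lies after that first start, inside the annotated gene. The CTTTGAA of DKK1 began 95 bases before the start. The LBH window was rich in G and C (72.8%, against a median of 58% over all windows), and that of DKK1 had 62.8%.

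LBH (ENSG00000213626) spans chr2:30231369-30323730 on the plus strand of GRCh38, with 9 transcripts in GENCODE release 29 and without an overlapping gene. Its level was lower in every high glucose library than in any control library. In CPM (counts scaled to a common library size with the TMM method), LBH was at 275.5, 227.1, 218.9, 230.7 and 232.8 in control replicates 1 to 5. In HG_1 to HG_5 it was at 116.3, 113.0, 118.0, 115.4 and 118.6 CPM. The means were 237.0 ± 22.2 and 116.3 ± 2.23 CPM (SD, n = 5 each), which is a log2 difference of -1.03 (standard error 0.0604), or 0.491 of the control level. In bulk RNA, less LBH per cell and fewer cells with LBH cannot be told apart.

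Spread within the groups was uneven. The 5 high glucose libraries had a coefficient of variation of 1.92%, and the control libraries one of 9.35%, most of it from control replicate 1. Without that library the log2 fold change of LBH was -0.97, and without HG_1 and control replicate 2 it was -1.04. In FPKM, LBH was at 75.1 ± 7.19 in control and 37.3 ± 1.17 in high glucose libraries (SD, n = 5 each). LBH was an abundant transcript, with a mean CPM above 93.2% of the rows tested. Of the 2120 rows with a mean of at least 100 CPM, 69.6% had a log2 fold change within 0.2 of 0. There 7 rows, LBH included, were as low as LBH or lower, and 15 were at least as far from 0 in either direction. Of all 14936 rows tested, 236 were lower by 2-fold or more, 107 of them with an adjusted p under 0.05 in edgeR. LBH was picked with its change known, so its place among these rows is a description.

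**Figure D1:**
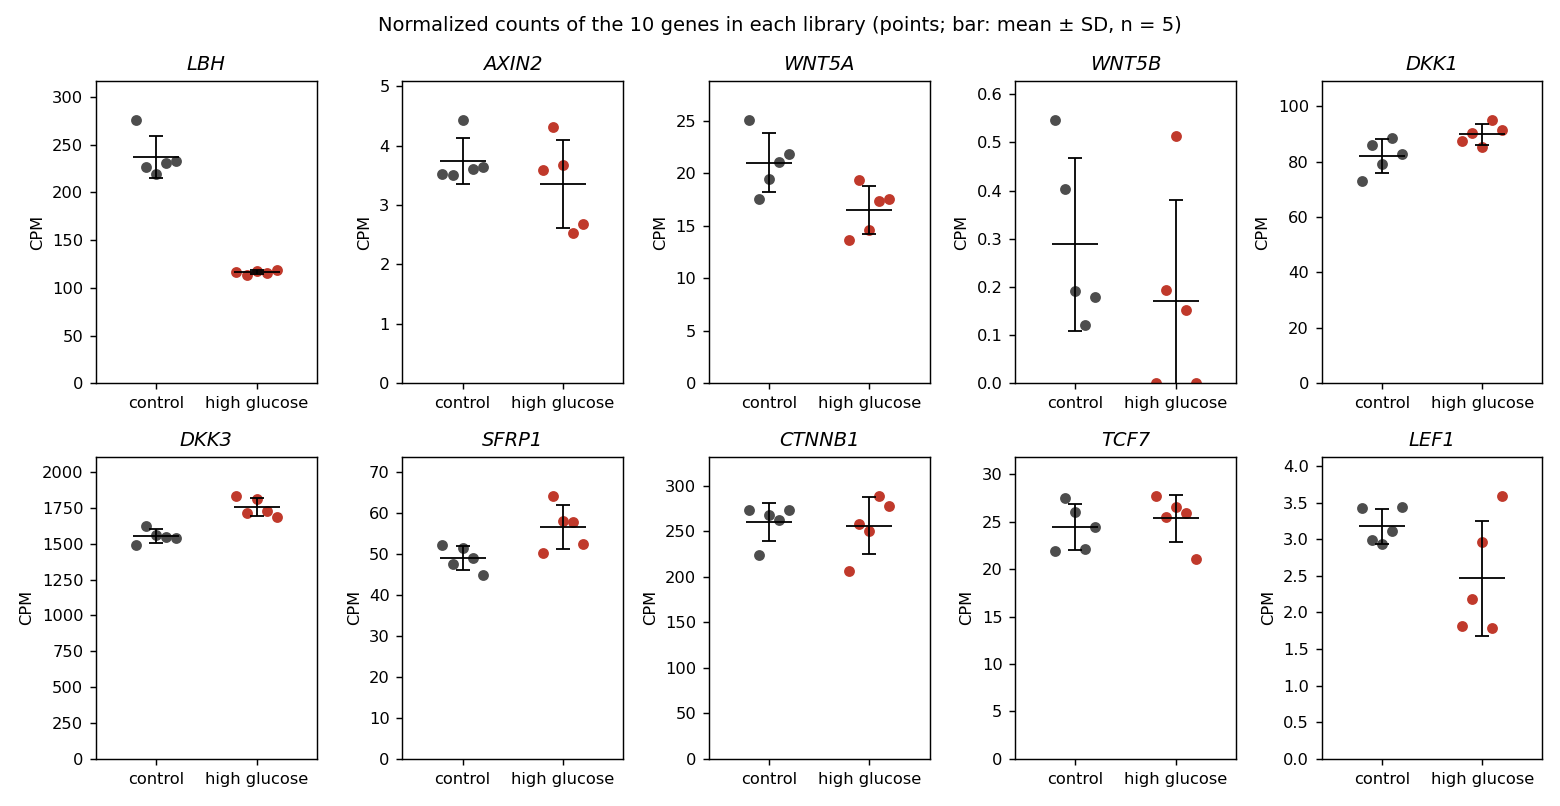
CPM of the 10 genes (y axis, from 0, its own scale in each panel) in the control and the high glucose group. Points are libraries, and bars are the mean ± SD of 5 libraries. LBH separates widely, with all high glucose libraries between 113.0 and 118.6 CPM and all control libraries at 218.9 or above, DKK3 separates narrowly, and the groups overlap in the other 8 genes.

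Among the 9 genes that passed the filter on low counts, 2 had an adjusted p under 0.05 in edgeR's quasi-likelihood test, LBH (lower) and DKK3 (higher). Over all rows tested 15.4% did, 7.62% higher and 7.8% lower. A fold change above 1.5 was added in LBH alone, and 3.69% of all rows passed both limits (1.67% higher and 2.02% lower). The groups did not overlap in LBH and DKK3, as in 13.6% of all rows (6.74% higher and 6.91% lower). Since the comparison was known when the genes were picked, nothing is read from these counts. Without HG_1 and control replicate 2, 4 genes had an adjusted p under 0.05 (LBH, DKK3, SFRP1 and WNT5A), against 27.1% of all rows, and the same 4 did with DESeq2, against 16.8%.

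**Figure D2:**
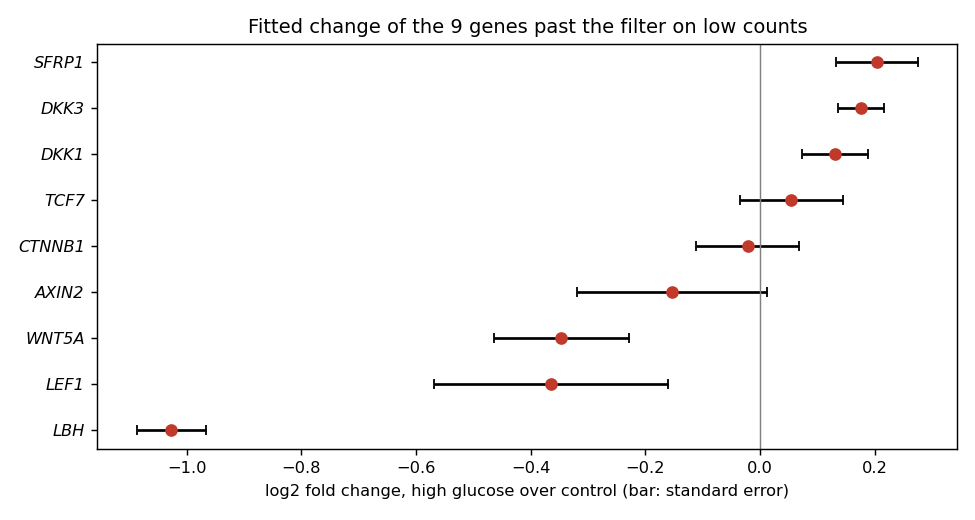
Fitted log2 fold change of high glucose over control (x axis) for the 9 genes past the filter on low counts (y axis), with bars for the standard error. LBH lies at -1.03, far from the others, which lie between -0.36 and 0.20.

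AXIN2 is a scaffold of the destruction complex and a standard readout of canonical Wnt signaling, because beta-catenin induces it. It was scarce in these cells. AXIN2 had 116, 156, 184, 119 and 162 counts in control replicates 1 to 5, and 138, 178, 165, 83 and 88 counts in HG_1 to HG_5. In CPM the control libraries lay between 3.50 and 4.42 and the high glucose libraries between 2.52 and 4.31, so the groups overlapped. The lowest values were those of HG_4 and HG_5. The log2 fold change was -0.15 (standard error 0.165). With 1 library left out it ranged from -0.26 (without HG_2) to -0.07 (without HG_4). AXIN2 stood at 0.899 of its control level by the fit, while LBH stood at 0.491.

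Of the ligands, WNT5A, a main ligand of the beta-catenin-independent arms, was at 25.05, 17.5, 19.5, 21.1 and 21.9 CPM in control replicates 1 to 5. In HG_1 to HG_5 it was at 13.7, 19.3, 14.6, 17.4 and 17.5 CPM. The means were 21.0 ± 2.81 and 16.5 ± 2.32 CPM (SD, n = 5 each), and the log2 fold change was -0.35 (standard error 0.118). The overlap came from control replicate 2, the lowest control library, which lay below HG_2 and, narrowly, HG_5. Leaving out HG_1 and control replicate 2 therefore removes the overlap by construction, and nothing is read from that. The log2 fold change of WNT5A was then -0.34. WNT5B, a close relative of WNT5A, did not pass the filter. It had between 4 and 18 counts per control library, and 0, 8, 23, 5 and 0 counts in HG_1 to HG_5. A count of 0 allows up to 3 counts, or 0.0779 CPM in HG_1 and 0.0912 CPM in HG_5, which is a limit from counting error only. No difference in WNT5B was detectable at this depth.

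Secreted proteins of the DKK and SFRP families hold back Wnt signaling outside the cell. DKK1 blocks the co-receptors LRP5 and LRP6, SFRP1 binds Wnt ligands and Frizzled receptors, and DKK3 is a divergent relative of DKK1 whose effect on Wnt signaling varies with the cell. DKK1, DKK3 and SFRP1 all had a higher mean in high glucose than in control medium. This was not shared by the families, since SFRP4 and DKK2 had a lower one. Their log2 fold changes were -1.01 for SFRP4 (edgeR adjusted p = 0.000234) and -1.22 for DKK2 (0.326), the latter with at most 22 counts per library. DKK3 was at 1494, 1623, 1561, 1548 and 1542 CPM in control replicates 1 to 5, and at 1832, 1716, 1813, 1732 and 1686 CPM in HG_1 to HG_5. Every high glucose library lay above every control library, but the nearest, HG_5 and control replicate 2, were close. The log2 fold change was 0.18 (standard error 0.0401), or 1.13 times the control level.

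DKK1 was at 73.1, 86.0, 79.1, 88.6 and 82.9 CPM in control replicates 1 to 5. In HG_1 to HG_5 it was at 87.3, 90.3, 85.1, 94.8 and 91.2 CPM. Here 3 of 5 high glucose libraries lay above the highest control library, and the log2 fold change was 0.13 (standard error 0.0577). SFRP1 was at 52.2, 47.7, 51.5, 49.1 and 45.0 CPM in control replicates 1 to 5. In HG_1 to HG_5 it was at 50.3, 64.1, 58.0, 57.9 and 52.4 CPM. All but HG_1 lay above the highest control library, and the log2 fold change was 0.20 (standard error 0.0721). Since HG_1 alone made the overlap in SFRP1, leaving out HG_1 and control replicate 2 removes it by construction, and nothing is read from that. The log2 fold change of SFRP1 was then 0.23, and the groups still overlapped in DKK1.

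The nuclear members showed no common direction. CTNNB1, which encodes beta-catenin, was at 273.5, 223.4, 267.6, 262.0 and 272.95 CPM in control replicates 1 to 5. In HG_1 to HG_5 it was at 206.5, 257.8, 249.96, 288.5 and 277.6 CPM. The lowest value of each group was that of the library set apart by the second principal component. The log2 fold change was -0.02 (standard error 0.0896), and its sign depended on the fit, from -0.07 without control replicate 2 to 0.06 with limma on log2(FPKM + 0.1). CTNNB1 differed between the groups by less than the spread within them, while its protein, the form that carries the signal, was not measured here.

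TCF7, a partner of beta-catenin on DNA, ranged from 21.9 to 27.5 CPM in control and from 21.1 to 27.7 CPM in high glucose libraries, and the groups covered nearly the same range. Its log2 fold change was 0.05 (standard error 0.0896), and with 1 library left out it ranged from 0.0185 (without control replicate 1) to 0.11 (without HG_5). LEF1, another such partner, was at 3.43, 2.98, 2.93, 3.12 and 3.44 CPM in control replicates 1 to 5. In HG_1 to HG_5 it was at 1.82, 2.18, 2.96, 1.79 and 3.59 CPM, so that 3 of 5 libraries lay below all control libraries and HG_5 above all of them. The log2 fold change was -0.36 (standard error 0.204). With HG_5 left out it was -0.54, and with HG_1 left out -0.27.

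Levels between genes were compared per length, in FPKM. In control libraries the order was DKK3 (534.9), LBH (75.1), CTNNB1 (68.4), DKK1 (41.9), SFRP1 (10.2), TCF7 (7.04), WNT5A (3.31), LEF1 (1.14), AXIN2 (0.906) and WNT5B (0.122). LBH and CTNNB1 overlapped there, as did LEF1 and AXIN2, and no other neighbours did. In high glucose libraries LBH (37.3 FPKM) came after both CTNNB1 (71.5) and DKK1 (46.3) without overlap. The other genes kept their places, apart from AXIN2 (0.768) and LEF1 (0.758), which overlapped again.

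The count and the FPKM of a gene should be linked by 1 length, the total count and a constant, and this was checked for each gene. For LBH the implied length was between 3107 and 3148 bases in all 10 libraries, so both tables give the same picture of it. The same held for DKK1 (1940 to 1958 bases), DKK3, SFRP1 and WNT5A, whose lengths varied by no more than 1.01 times. For CTNNB1 and TCF7 the highest was 1.12 and 1.13 times the lowest. AXIN2 ranged from 3499 to 4637 bases, WNT5B, where it had counts, from 2004 to 2962, and LEF1 from 2281 to 3861. In LEF1 the libraries fell apart into HG_1, HG_2, HG_4 and control replicate 2, at 3811 to 3861 bases, and the other 6, at 2281 to 3025. The FPKM of LEF1 is not a fixed multiple of its count, and on log2(FPKM + 0.1) its log2 fold change was -0.60, against -0.36 on counts. Apart from fits that leave out 1 library, -0.60 was the lowest value of any alternative. The highest was -0.29, without HG_1 and control replicate 2.

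**Figure D3:**
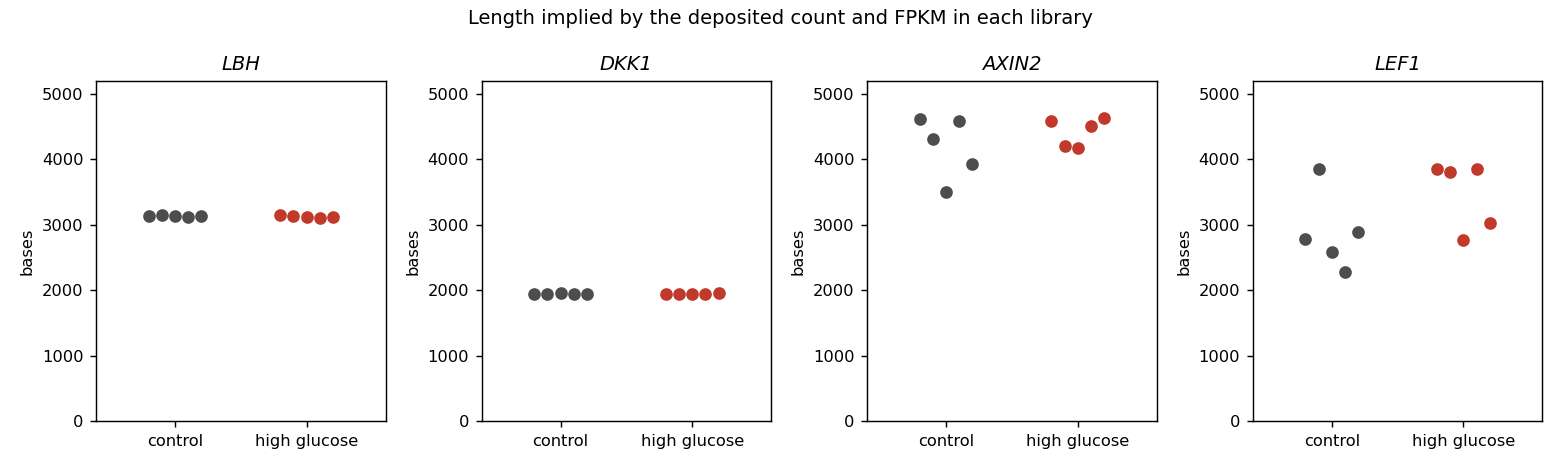
Length in bases (y axis, from 0) that links the deposited count and FPKM of LBH, DKK1, AXIN2 and LEF1, with 1 point per library in each group. LBH and DKK1 are flat, with LBH between 3107 and 3148 bases, and LEF1 spreads from 2281 to 3861 bases.

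By the same annotation the ligand genes lie at chr3:55465715-55490539 (WNT5A, minus strand) and chr12:1529891-1647243 (WNT5B, plus). The genes of the secreted inhibitors lie at chr10:52314296-52318042 (DKK1, plus), chr11:11963106-12009769 (DKK3, minus) and chr8:41261958-41309497 (SFRP1, minus). AXIN2 lies at chr17:65528563-65561647 (minus), CTNNB1 at chr3:41194741-41260096 (plus), TCF7 at chr5:134114711-134151865 (plus) and LEF1 at chr4:108047545-108168956 (minus). Counts are sums over whole genes, so exons and transcripts were not told apart.

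Overlaps with other genes also limit some values, since the sources used here do not say whether the counting used strand. TCF7 shares 210 exon bases with SKP1 on the other strand, an abundant gene with 8849 to 15676 counts per library. DKK1 shares 212 exon bases with PRKG1-AS1, and LEF1 279 with LEF1-AS1, both on the other strand and both without a row here. AXIN2 shares 1316 exon bases with AC004805.1 on the same strand, whose row held 0 counts in every library.

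Within 250 kb of LBH, 2 annotated genes had a row. YPEL5, whose nearest end lies 70.8 kb away, rose from 98.6 to 113.2 CPM, by 0.20 on the log2 scale (standard error 0.0448, edgeR adjusted p = 0.0125), the opposite direction to LBH. LCLAT1, 123.5 kb away, was at 15.2 CPM in control and 13.6 CPM in high glucose, which is -0.15 on the log2 scale (standard error 0.0925, edgeR adjusted p = 0.318).

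The genes most like LBH over the log2 CPM of the 10 libraries, among 12364 ranked by Pearson's r, were TIMP3 (0.996), PRSS23 (0.995), DNAJB11 (0.994), CCN2 (0.993) and GALNT2 (0.992). All of them were lower in high glucose, so the difference between the groups carries much of these values. TIMP3, an inhibitor of metalloproteinases, had a log2 fold change of -1.25, and CCN2, a matricellular protein, one of -1.29. When deviations from the group means were used, the genes most like LBH included LMO4 (0.956), NOG (0.940), LIMK2 (0.935) and SCHIP1 (0.924). The coefficient of variation of LBH was only 1.92% in high glucose, and most of the 9.35% in control came from control replicate 1. Values of r over deviations therefore rest largely on that library, and r without it was not tested. NOG was at 1.84 CPM in control and 2.04 CPM in high glucose, so it did not share the lower level of LBH there. Its likeness to LBH lay in these deviations only. Among the other Wnt genes followed here, r over deviations ranged from -0.63 (DKK1) to 0.47 (WNT5A), with the same limit. All libraries share 1 cell line and 1 normalization, and these values describe the 10 libraries only.

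For context, 151 further Wnt pathway genes were listed by role from general knowledge, with earlier results of these data known, so the counts below are not independent evidence of a direction. Of these genes 112 passed the filter on low counts. In edgeR's test 32 had an adjusted p under 0.05, 7 higher and 25 lower, which is 28.6% of the 112 against 15.4% of all rows tested. The median log2 fold change of the 112 genes was -0.10, and that of all rows 0.00. Of these genes 7 also had a fold change above 1.5, all of them lower, against 3.69% of all rows (1.67% higher and 2.02% lower). Neither RLE size factors (7 higher and 25 lower) nor library size alone (7 and 24) changed the directions. Without HG_1 and control replicate 2, 44 of 111 genes had an adjusted p under 0.05, 10 higher and 34 lower, against 27.1% of all rows. Whether the list differs from other genes was not tested.

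**Figure D4:**
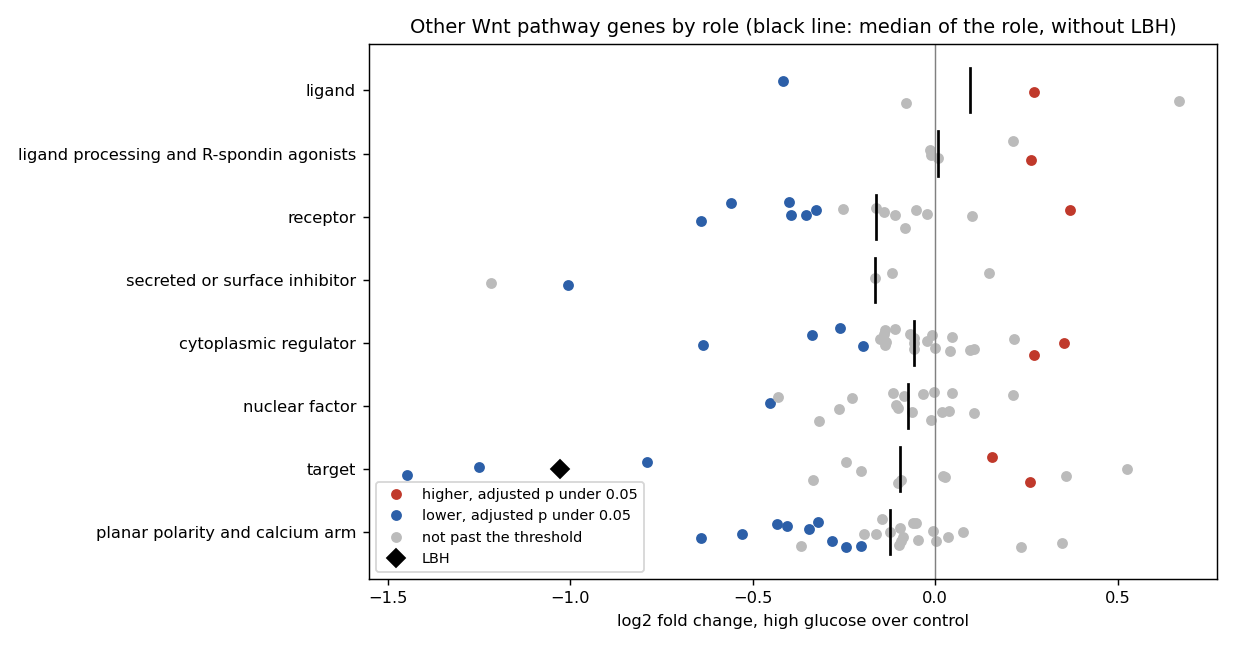
Log2 fold change of high glucose over control (x axis) for 112 further Wnt pathway genes by role (y axis). Colors mark an adjusted p under 0.05 in edgeR, the black lines are medians of each role, and the diamond is LBH at -1.03. Of the 32 colored points, 25 lie below 0.

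Ligand genes were mostly silent. Of 17 further ligands 13 did not pass the filter, with at most 11 counts in any library and 6 at 0 in all. WNT9A rose from 14.3 to 17.3 CPM (log2 fold change 0.27, standard error 0.0755, adjusted p = 0.0335 from edgeR), above all control libraries in each high glucose library. WNT2B fell from 21.1 to 15.8 CPM (log2 fold change -0.42, standard error 0.119, adjusted p = 0.0374 from edgeR), below the control mean in 5 of 5 libraries, but with overlapping groups. Both calls were lost in 7 of the 10 fits that leave out 1 library, with adjusted p up to 0.0783 for WNT9A and 0.0919 for WNT2B in edgeR. WNT4 was at 0.767 and 1.22 CPM (adjusted p = 0.0647) and WNT3 at 1.36 and 1.29 CPM (adjusted p = 0.802). PORCN, the enzyme that attaches the lipid to Wnt ligands, rose from 28.99 to 34.8 CPM (log2 fold change 0.26, standard error 0.0619, adjusted p = 0.016 from edgeR), and no library overlapped. WLS, which carries Wnt ligands to the cell surface, was at 99.2 and 98.1 CPM (adjusted p = 0.882), and the R-spondin receptor LGR4 at 49.6 and 49.8 CPM (adjusted p = 0.983).

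Receptors had 7 of 15 tested genes with an adjusted p under 0.05, 6 lower and 1 higher (46.7%, against 15.4% of all rows). As for each role below, whether this share differs from that of all rows was not tested. FZD1 fell from 59.6 to 40.4 CPM (log2 fold change -0.56, standard error 0.0617, adjusted p = 0.000257 from edgeR), and FZD2 from 122.6 to 93.3 CPM (log2 fold change -0.39, standard error 0.061, adjusted p = 0.00168). Neither gene had overlapping groups. ROR1, a receptor for WNT5A, fell from 24.996 to 16.0 CPM (log2 fold change -0.64, adjusted p = 0.0338), and FZD5 from 16.0 to 12.1 CPM (log2 fold change -0.40, adjusted p = 0.0279). The groups overlapped in FZD5. The calls of ROR1 and FZD5 were each lost in 6 of the 10 fits that leave out 1 library, with adjusted p up to 0.0851 and 0.0716. Named after their values were seen, the co-receptor LRP5 fell from 34.1 to 26.7 CPM (adjusted p = 0.00133), PTK7 from 132.6 to 105.7 CPM (adjusted p = 0.00329), and FZD4 was the receptor that rose, from 61.8 to 79.7 CPM (adjusted p = 0.00926). FZD6 was at 103.2 and 92.3 CPM (adjusted p = 0.415) and RYK at 66.5 and 61.5 CPM (adjusted p = 0.124). Without HG_1 and control replicate 2 both passed in edgeR, FZD6 at a log2 fold change of -0.14 (adjusted p = 0.0379) and RYK at -0.12 (adjusted p = 0.0259). With 1 library left out neither passed, the lowest edgeR adjusted p being 0.193 for FZD6 and 0.0613 for RYK. The log2 fold change of FZD6 then ranged from -0.23 (without control replicate 2) to -0.07 (without HG_1).

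Beside DKK1, DKK3 and SFRP1, 5 further inhibitors were tested. SFRP4, a relative of SFRP1, fell from 16.4 ± 1.30 to 8.15 ± 1.21 CPM (SD, n = 5 each), or -1.01 on the log2 scale (standard error 0.109, edgeR adjusted p = 0.000234), with no overlap. SFRP4 and SFRP1 lay on different sides of their control levels in the same libraries, at log2 fold changes of -1.01 and 0.20. KREMEN1, a receptor for DKK1, was at 8.97 and 9.94 CPM (adjusted p = 0.524), and TPBG at 13.3 and 11.9 CPM (adjusted p = 0.151).

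Cytoplasmic regulators had 6 of 24 tested genes with an adjusted p under 0.05, 2 higher and 4 lower (25%, against 15.4% of all rows). DVL2, which relays the signal from Frizzled receptors, rose from 69.6 to 89.0 CPM (log2 fold change 0.35, standard error 0.0595, adjusted p = 0.00263 from edgeR), while its relative DVL3, named after its value was seen, fell from 295.1 to 257.3 CPM (log2 fold change -0.20, standard error 0.0405, adjusted p = 0.00775). DACT1, a binding partner of Dishevelled proteins, fell from 19.4 to 12.5 CPM (log2 fold change -0.64, adjusted p = 0.00645). PPP2R5A, a subunit of protein phosphatase 2A, rose from 27.3 to 32.9 CPM (adjusted p = 0.0152). WTIP fell from 28.9 to 22.8 CPM (adjusted p = 0.0237), a call lost in 5 of the 10 fits that leave out 1 library, with adjusted p up to 0.0627. The casein kinases CSNK1D, at 206.7 and 198.7 CPM, and CSNK1E, at 119.5 and 123.0 CPM, did not pass (adjusted p = 0.601 and 0.599), while CSNK1G2, named after its value was seen, fell from 119.0 to 99.3 CPM (log2 fold change -0.26, adjusted p = 0.0325 from edgeR). The groups overlapped in WTIP and CSNK1G2.

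Nuclear factors other than CTNNB1, TCF7 and LEF1 had 1 of 18 tested genes with an adjusted p under 0.05 (5.56%, against 15.4% of all rows). This was TLE4, a co-repressor that binds TCF and LEF proteins, which fell from 32.1 to 23.4 CPM without overlap (log2 fold change -0.45, standard error 0.0648, adjusted p = 0.00113 from edgeR). TLE5, a shorter relative of TLE4, was at 334.8 and 346.0 CPM (adjusted p = 0.84), and the co-repressor CTBP1 at 173.1 and 169.3 CPM (adjusted p = 0.709).

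Besides LBH and AXIN2, 14 genes known as Wnt targets in some tissue were tested, and 5 had an adjusted p under 0.05, 2 higher and 3 lower (35.7%, against 15.4% of all rows). EDN1, which encodes the vasoconstrictor endothelin-1, fell from 10.8 ± 2.37 to 3.96 ± 0.704 CPM (SD, n = 5 each), or -1.45 on the log2 scale (standard error 0.169, edgeR adjusted p = 0.000366). TNFRSF19, a receptor of the tumor necrosis factor family, fell from 45.5 to 26.3 CPM (log2 fold change -0.79, standard error 0.115, adjusted p = 0.00124), and neither gene had overlapping groups. VCAN, a matrix proteoglycan, fell from 2.14 to 0.902 CPM (log2 fold change -1.25, adjusted p = 0.0265), with 15 to 99 counts per library and overlapping groups. Its call was lost in 4 of the 10 fits that leave out 1 library, with adjusted p up to 0.0711. CD44, a receptor for hyaluronan, rose from 437.5 to 523.6 CPM (log2 fold change 0.26, standard error 0.0449, adjusted p = 0.00314), above all control libraries in each high glucose library. JUN was the other gene that rose, from 208.2 to 232.0 CPM (adjusted p = 0.0284), and is named after its value was seen. CCND1, a cell cycle driver, was at 571.5 and 495.9 CPM (log2 fold change -0.20, adjusted p = 0.0948), and BAMBI at 176.9 and 180.2 CPM (adjusted p = 0.842).

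In the planar polarity and calcium arm 9 of 27 tested genes had an adjusted p under 0.05, and all 9 were lower (33.3%, against 15.4% of all rows, 7.8% lower). CELSR1 and CELSR2, atypical cadherins that align cells with their neighbours, fell from 54.8 to 41.4 and from 47.5 to 35.1 CPM (log2 fold changes -0.41 and -0.43, adjusted p = 0.00163 and 0.0023 from edgeR). Neither had overlapping groups. PLCB4, a phospholipase of the calcium arm, fell from 405.7 to 260.2 CPM (log2 fold change -0.64, standard error 0.128, adjusted p = 0.00681), with overlapping groups. PRICKLE1, a polarity protein, fell from 4.27 to 2.96 CPM (log2 fold change -0.53, adjusted p = 0.0272), a call lost in 5 of the 10 fits that leave out 1 library, with adjusted p up to 0.0704. The small GTPases RHOA, at 670.6 and 642.8 CPM, and RAC1, at 401.7 and 387.1 CPM, did not pass (adjusted p = 0.265 and 0.378).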

How the data were processed

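RNA of 10 ARPE-19 samples was sequenced, 5 per group. The high glucose columns carry numbers where the labels carry letters, so they were matched to their group only. The submitters' processing notes name fastp 0.20.1, HISAT2 2.2.1 and GRCh38, while the counting program is not given in the sources used here. The authors deposited counts per gene without normalization, and FPKM values divided by length and depth. The 2163 loci named MSTRG in the tables held 1.34% to 1.65% of the counts.

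The comparison used R 4.3.3 and edgeR 4.0.16 (default filter on low counts, TMM, quasi-likelihood test, Benjamini-Hochberg adjustment over all 14936 rows). CPM used TMM library sizes, and log2 CPM a prior count of 2. Alternatives used DESeq2 1.42.0, limma 3.58.1 on log2(FPKM + 1) and log2(FPKM + 0.1), other normalizations and filters, and libraries left out. The edgeR, DESeq2 and limma steps were tested on simulated counts. A library with 0 counts of a gene could hold up to 3, or 0.0669 to 0.0912 CPM.

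The members and lists were chosen with earlier results of these data known. Named in each role were up to 4 genes with an adjusted p under 0.05 and the largest change, and up to 2 others with the highest mean FPKM. Values of some genes are not reported here. No library repeated another of its group within sampling noise.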

Additional observations from a re-analysis of the deposited data

Results flagged for a closer look

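For 47 genes named above, the 5 CPM values of each condition were searched for a lone high or low library. It was found in 11 of 94 such groups, and chance finds it in about 1 in 20 (4.7 here). Of these 11, 7 were in HG_1 or control replicate 2.

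LBH was at 275.5 CPM in control replicate 1, against 218.9 to 232.8 in the other control libraries. AXIN2 was at 4.42 CPM in control replicate 3, against 3.50 to 3.64. CTNNB1 was at 223.4 CPM in control replicate 2, against 262.0 to 273.5. WNT4 was at 1.12 CPM in control replicate 1, against 0.601 to 0.719 in the other control libraries.

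In HG_1, LGR4 was at 34.9 CPM while HG_2 to HG_5 lay at 51.4 to 56.8, and FZD6 at 68.0 against 95.0 to 103.9. CSNK1D was at 224.5 CPM there against 188.2 to 197.7, and WTIP at 26.9 against 21.4 to 22.6. TLE5 was high in both libraries that stand apart, at 420.9 CPM in control replicate 2 against 300.8 to 318.5, and at 437.6 CPM in HG_1 against 315.8 to 329.5. RHOA was at 650.8 CPM in HG_4 against 639.7 to 641.7.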

How the results depend on the processing

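The log2 fold change of LBH was between -1.05 and -0.97 with each library left out in turn, and between -1.04 and -0.99 under the other alternatives. The 2303 rows with an adjusted p under 0.05 became 4035 without HG_1 and control replicate 2, and 1071 with the replicate block, and ranged from 1648 (without HG_3) to 2993 (without HG_1) with 1 library left out. For the further Wnt pathway genes the 32 became 16 with the replicate block (3 higher and 13 lower), and ranged from 22 to 34 with 1 library left out. For the genes followed here the 2 became 4 with DESeq2, 4 without HG_1 and control replicate 2, and 1 (LBH) with the replicate block, and ranged from 2 to 3 with 1 library left out. In this block the column numbers pair the libraries, but same-numbered columns did not deviate together (r between -0.07 and 0.04, 0 of 5 over 0.1), so they share only a number.

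Of the 21 genes with an adjusted p under 0.05 that the rule for named genes picked, 14 kept it with each library left out, and 13 under every alternative run. The 6 genes named after their values were seen (LRP5, PTK7, FZD4, DVL3, CSNK1G2 and JUN) are not in these counts. PORCN lost it with the replicate block. Directions turned in genes near 0 that had not passed. WNT3 was at 0.00642 and WLS at 0.0134 on the log2 scale without HG_1 and control replicate 2, and with 1 library left out the ranges were -0.13 to 0.0106 (WNT3), -0.0473 to 0.00747 (WLS), -0.0867 to 0.11 (LGR4), -0.0481 to 0.14 (TLE5) and -0.0226 to 0.0650 (BAMBI). Of 16 genes named that had not passed, 4 did under an alternative. FZD6 and RYK passed without HG_1 and control replicate 2. CCND1 passed without both of these (adjusted p = 0.0287), with DESeq2 (0.0485) and without HG_4 (0.037), and WNT4 without control replicate 1 (0.0255), with at least 10 counts in every library (0.0381) and with limma on log2(FPKM + 1). Each cause was not tested. WNT5B gave no value where the filter removed it. Low counts limit WNT5B, AXIN2 and LEF1, and WNT3, WNT4 and VCAN among the further genes.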
